A study of Homo sapiens with 6 samples.

Results

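Genes for sequence-specific transcription factors, the proteins that read short DNA words and set which genes are copied, were followed in AGS cells treated with saikosaponin-D (SSD), a triterpenoid saponin of Bupleurum root. A gene of the deposited table was a member if its gene ontology annotation held the term for DNA-binding transcription factor activity, alone or specific to RNA polymerase II, or if its symbol began with ZNF, ZBTB, ZSCAN or ZKSCAN. MYC, the ID genes, SMAD6 and SMAD7 were left out by name. This gave 68 members of the 1099 genes in the table: 67 by gene ontology and 1, ZNF703, by its symbol alone. By their symbols, 20 of the members are C2H2 zinc finger genes, 11 of them with a symbol prefix of the rule and 9 with another C2H2 symbol (KLF, PRDM or ZFHX), and 48 are other transcription factor genes. The table's own domain annotation lists a C2H2 domain for 17 of the 20, and not for PRDM11, ZNF518A and ZNF703. SOX9 and KLF12 are in the table without these ontology terms and were therefore not counted.

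RNA-seq libraries were made from AGS, an established gastric adenocarcinoma line of wild-type genotype by the labels, with 3 libraries of vehicle-treated cells and 3 of SSD-treated cells, both taken at 24 h. The labels give 10 μM for the treatment, whereas the methods of the study give a lower dose, so the dose is not settled. Free-text protocol fields of the labels name a prostate line, C4-2B, and a compound called L14-8. Of 14 epithelial and gastric markers 2 were in the table, CDH17 and TFF1, with a summed level of 66.87 to 125.72 TPM (the deposited unit, a share of reads corrected for transcript length), and of 9 prostate markers 0 were in it. The table lists only genes that the authors' own test had placed among the smallest p-values of 11289 genes, the largest deposited p being 0.00535, so most of its genes move in 1 direction or the other and membership in the table is itself chosen on the outcome. A marker expressed without change would be absent from it, so the marker counts cannot tell which line was used. Counts over the table summed to 3436540 to 4640114 under vehicle and 3084337 to 3242553 under SSD, which is part of each library and not its depth. Nothing in the labels says whether the 3 libraries of a group came from separate cultures, so p-values measure the spread between these libraries, which may be technical.

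A zinc finger of the C2H2 kind is a small fold held by a zinc ion that touches a few bases of DNA. Proteins that carry several in a row read longer words, and they form the largest class of human transcription factors. Krüppel-like factors (KLFs) bind GC-rich boxes through their fingers, and KLF4 and KLF5 are known for opposite parts in gut epithelium, KLF4 in differentiated cells and KLF5 in dividing cells. Other members read DNA through other folds. STAT proteins wait in the cytoplasm until a cytokine receptor activates them, interferon regulatory factors (IRFs) bind interferon-response elements, bZIP proteins such as C/EBPβ bind as pairs, and ETS factors such as EHF mark epithelium. MYC, the protein on which the study centred, binds the E-box CACGTG together with MAX.

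The E-box is shown first because it is the word that MYC and MAX read and because several clock and bHLH members bind it too. Promoters, taken as 250 bases before to 50 after each RefSeq transcript start on GRCh38.p14, were found for 56 of the 68 members. A gene was counted for a word when any of its promoters held it. The 56 members had 102 promoters, and all 27305 RefSeq genes with one had 35116. More sequence was thus searched per member, which can raise the members' shares for every word given below. Stretches around the word follow, written 5′ to 3′ on the gene's strand with the E-box in capitals, for KLF4, BHLHE40, NR1D2, IRF9, ZNF532 and KLF6. They lie at chr9:107489896-107489951 (minus strand), chr3:4979187-4979222 (plus), chr3:23945941-23945996 (plus), chr14:24161169-24161224 (plus), chr18:58864020-58864075 (plus) and chr10:3785276-3785331 (minus).
KLF4: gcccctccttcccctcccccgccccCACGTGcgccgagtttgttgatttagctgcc
BHLHE40: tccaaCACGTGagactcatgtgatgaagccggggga
NR1D2: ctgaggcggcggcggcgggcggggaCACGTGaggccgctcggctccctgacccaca
IRF9: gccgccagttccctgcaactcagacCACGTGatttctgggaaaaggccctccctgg
ZNF532: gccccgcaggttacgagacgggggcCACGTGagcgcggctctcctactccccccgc
KLF6: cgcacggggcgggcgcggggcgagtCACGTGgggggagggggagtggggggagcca

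An E-box lay in a promoter of 11 of the 56 matched members (19.6%), against 15.1% of the 816 other table genes with a promoter and 8.8% of all 27305 RefSeq genes with one. Of these 11 genes, 6 were called higher under SSD by the test described next (ATF6B, BHLHE40, IRF9, NR1D2, ZBED6 and ZNF532), 2 were called lower (KLF4 and ZNF593) and 3 were not called (AHR, KLF6 and SP100). Over the whole table, which was chosen for change, 32.3% of genes were called higher and 20.8% lower. The word lay in promoters of members called in either direction, in that of ZNF593 just after the transcript start. Whether it bears on these changes was not tested. A match describes the letters of the window and is neither a bound site nor a cause, and a gene without one may hold it elsewhere.

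Words of the interferon system were searched in the same windows. The GAS element, TTCNNNGAA, which activated STAT dimers read, lay in promoters of 5 members (EHF, FOXP1, IRF9, ZNF532 and ZSCAN31), or 8.9% against 7.4% of other table genes and 9.4% of all genes. A single one is printed because IRF9 is itself a partner of STAT proteins and the word follows its E-box closely, at chr14:24161177-24161235 on the plus strand, with the GAS word in capitals.
IRF9: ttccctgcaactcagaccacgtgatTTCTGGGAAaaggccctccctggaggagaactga
The interferon-stimulated response element, a pair of GAAA words with 2 bases between them on either strand, lay in promoters of TFDP2, ZNF160 and ZNF232 (5.4%, against 7.4% of other table genes and 4.4% of all genes). The GC box GGGCGG, the kind of word that KLF and SP proteins read, lay in 45 of the 56 (80.4%, against 71.3% of other table genes and 48.3% of all genes). The AP-1 word TGACTCA lay in 3 members (5.4%, against 5.6% of other table genes and 6.0% of all genes). The full palindromic cyclic AMP response element lay in 5 (8.9%, against 2.8% of other table genes and 2.2% of all genes). These were CREB3L2, SKIL, TGIF2, ZNF143 and ZNF593, of which only ZNF593 was called. The AHR word GCGTG lay in 33 (58.9%, against 57.8% of other table genes and 40.6% of all genes). All words were searched on both strands, and the GAS window also holds the E-box of IRF9.

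Change was measured as log2 of SSD over vehicle, fitted with edgeR's quasi-likelihood test to the authors' estimated counts of all 1099 genes, on a scale between libraries that reflects each whole library. A gene was called when its Benjamini-Hochberg adjusted p, taken over 11289 genes, was under 0.05. Of the 68 members 28 were higher under SSD (41.2%), 11 were lower (16.2%) and 29 were not called. Over the whole table, 32.3% of the genes were called higher and 20.8% lower, so that the members' shares lay somewhat above and somewhat below a background that is itself chosen for change. By TPM, all 3 SSD libraries lay above all 3 vehicle libraries for 31 members and below them for 26, against 32.2% and 44.2% of the table. With a limit of 1.5-fold as well, 2 members were higher (KLF2 and NR3C2) and 1 was lower (POU2F3), against 3.18% and 3.73% of the table. The changes were thus small, from -0.87 to 0.66 on the log2 scale. In bulk RNA, fewer cells of a kind and less RNA per cell cannot be told apart.

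**Figure D1:**
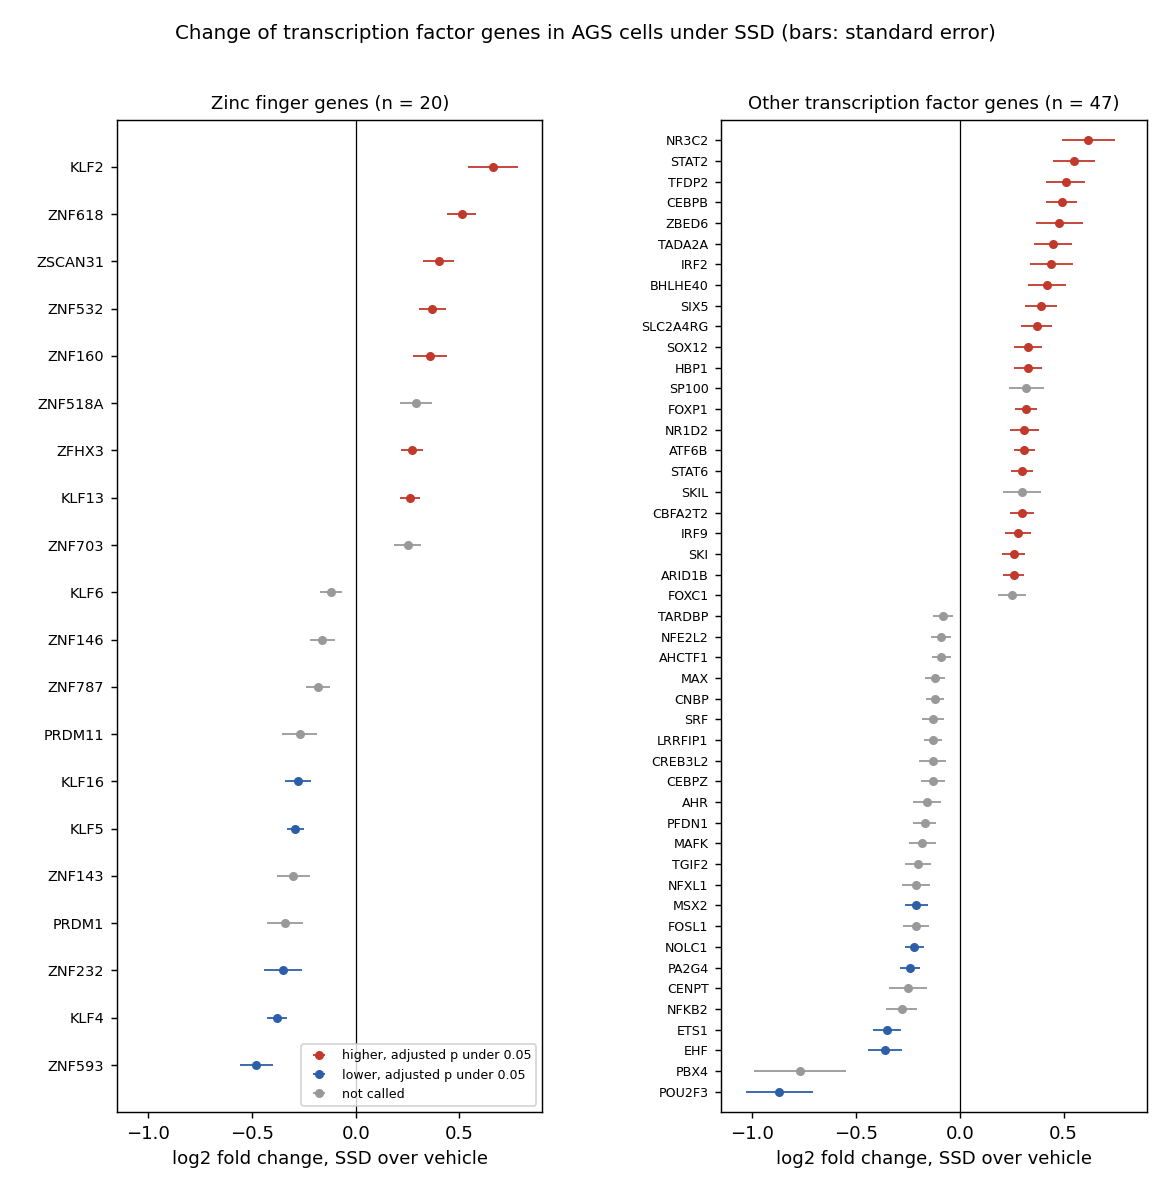
Log2 fold change of SSD over vehicle (x axis) for each of the 20 zinc finger genes (left) and the other transcription factor genes drawn (right), 3 libraries per group, with bars of 1 standard error; red points were called higher, blue points called lower and grey points not called. The points leave a gap around 0, since the table holds genes chosen for change, and run from -0.48 for ZNF593 to 0.66 for KLF2 among zinc finger genes and from -0.87 for POU2F3 to 0.62 for NR3C2 among the others.

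Among the 20 zinc finger genes 7 were called higher (35.0%), 5 lower (25%) and 8 not, with a median log2 fold change of -0.14, the same as the -0.14 over all table genes. Among the 48 others 21 were called higher (43.8%), 6 lower (12.5%) and 21 not, with a median of 0.08. No test of the difference between these classes was made. Only 3 members had a change under 0.1 in size, so that a median lies across the gap around 0 and moves with a few genes. By log2(TPM + 1) minus the vehicle mean, the zinc finger median was -0.14, 0.22 and 0.05 in SSD replicates 1, 2 and 3. The SSD libraries thus differed in sign. For the others it was 0.06, 0.05 and 0.11, and over the table -0.11, -0.13 and -0.08. Members called higher had a median level of 24.7 TPM under vehicle and members called lower one of 60.5 TPM, and over all table genes these levels were 23.9 and 105 TPM. The rises were thus mostly of less abundant transcripts, for the members as for the table.

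**Figure D2:**
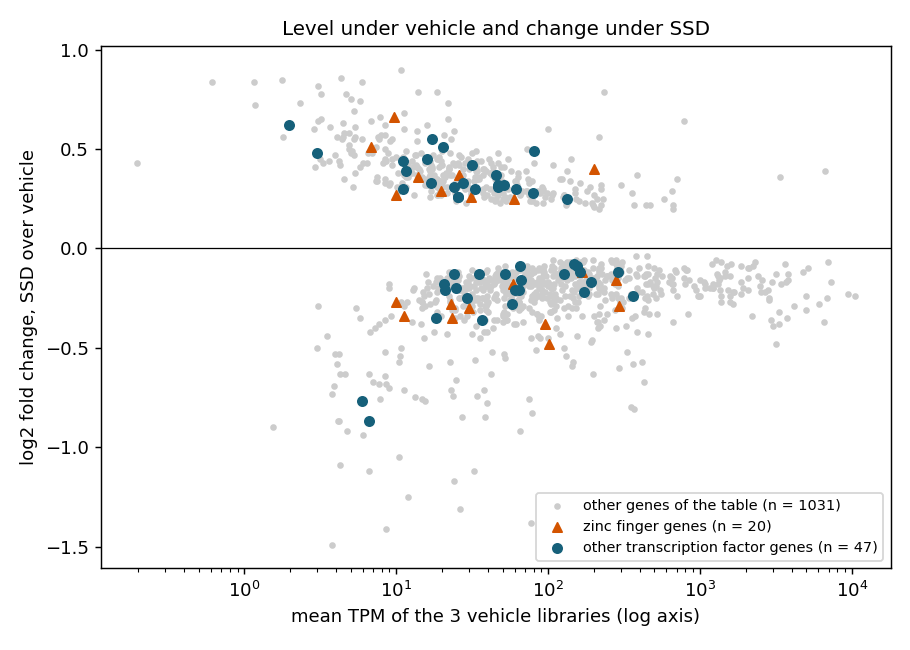
Mean TPM of the 3 vehicle libraries (x axis, log scale) against the log2 fold change of SSD over vehicle (y axis) for the 20 zinc finger genes (orange triangles), the other transcription factor genes drawn (blue circles) and the remaining genes of the table (grey). Members lie among the other genes of the table, with a median level of 24.7 TPM for those called higher and 60.5 TPM for those called lower.

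The counts of called genes changed when a library was left out. Each such fit also has fewer libraries, so a lost call need not mean a changed effect. The log2 fold changes of called members kept their sign in all these fits. They ran from 0.37 to 0.40 for SIX5 and from 0.32 to 0.51 for BHLHE40. Without vehicle replicate 1, 2 or 3, the zinc finger genes called higher numbered 6, 1 and 4, and the others called higher 13, 4 and 8. Without SSD replicate 2 they numbered 3 and 7. Zinc finger genes called lower numbered 3, 2 and 3 without vehicle replicates 1, 2 and 3 and 3 without SSD replicate 2. Other genes called lower numbered 1 when vehicle replicate 2 or 3 or SSD replicate 2 was left out. The whole table moved alike, with 252, 111 and 146 genes called higher and 151, 68 and 78 lower without vehicle replicates 1, 2 and 3, and 139 and 74 without SSD replicate 2, against 355 and 229 with all libraries. With each of the 6 libraries left out in turn, ZNF618, KLF4, KLF5, CEBPB and TFDP2 were still called. Of these, TFDP2 and ZNF618 were not called by limma's linear model of log2(TPM + 1) (adjusted p 0.461 and 0.0785). TFDP2 was also not called with the replicate number as a block in edgeR's test (adjusted p 0.0576). The calls also changed with the scale between libraries, for which 4 were compared: the whole-library scale, TMM, DESeq2's size factors and the table's total. With TMM normalization, which assumes that most listed genes do not change, the zinc finger genes gave 9 higher and 3 lower and the others 24 higher and 1 lower.

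Of the Krüppel-like factors, 6 were in the table as members, and they moved both ways: 2 were called higher, 3 lower and 1 was not called, in a table with 32.3% of genes called higher and 20.8% lower. KLF4, a factor of differentiating gut epithelium at chr9:107484852-107490482, had 93.93, 95.65 and 97.31 TPM with vehicle, versus 71.34, 74.02 and 74.67 with SSD. All SSD libraries lay below all vehicle libraries, and replicates of each group lay close together. Its log2 fold change was -0.38 (SE 0.0475, adjusted p 0.00257), and it was called on all 4 scales and without any 1 library. KLF5, a factor of dividing gut epithelium at chr13:73054976-73077542, was the most abundant of the family, with 292.59, 288.27 and 295.27 TPM with vehicle, versus 228.24, 245.05 and 249.97 with SSD. It too fell without overlap of the groups (log2 fold change -0.29, SE 0.0423, adjusted p 0.00505). The pair known for opposite parts in gut epithelium therefore fell together here.

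KLF2, a factor of quiescent endothelium and lymphocytes at chr19:16324817-16327874, showed the largest rise of the 68 members. It had 6.65, 10.9 and 11.27 TPM with vehicle, versus 16.89, 15.0 and 17.01 with SSD. The groups did not overlap, but vehicle replicate 1 lay well below the other vehicle libraries by TPM. The length that its count and TPM together imply, described below for KLF16, also varied. As a percent of the vehicle mean it was 121.3, 87.4 and 91.3 under vehicle and 81.5, 109.1 and 82.0 under SSD. The log2 fold change was 0.66 (SE 0.12, adjusted p 0.0114), and it was not called without vehicle replicate 2 or without SSD replicate 2. KLF2 has 4 annotated pseudogene copies, with which reads can be shared. KLF13, a widely expressed family member known in T cells, rose from 30.51, 30.48 and 31.87 TPM to 35.7, 37.87 and 43.27 TPM (log2 fold change 0.26, SE 0.0487, adjusted p 0.0123). Its groups did not overlap, and the call was lost when vehicle replicate 2 or 3 or SSD replicate 2 was left out. KLF6, a widely expressed factor often described as a tumour suppressor, had 157.06 to 172.57 TPM under vehicle and 148.36 to 161.6 TPM under SSD, groups that overlapped, and was not called (log2 fold change -0.12, adjusted p 0.472). KLF12, not a member by the rule, had a log2 fold change of 0.44 (SE 0.0709, adjusted p 0.00717), from 4.18 ± 0.0153 to 5.66 ± 0.389 TPM (SD, n = 3).

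KLF16 gave different answers by count and by TPM. Its counts were called lower (log2 fold change -0.28, SE 0.0626, adjusted p 0.0259), though not without any 1 vehicle library or SSD replicate 2. Its TPM values were 22.74, 23.13 and 23.1 under vehicle and 19.65, 26.71 and 24.67 under SSD, and on log2(TPM + 1) its difference was 0.03. The length that its count and TPM together imply, as a percent of the vehicle mean, was 100.4, 99.7 and 100 under vehicle and 100.1, 70.2 and 74.5 under SSD, so that it dropped in SSD replicates 2 and 3 but not in replicate 1. Such a length is an average over the transcripts that the authors' program assigned reads to. A gene was counted as shorter when all SSD libraries lay below all vehicle libraries and the SSD mean was at least 10% under the vehicle mean. This held for 1 of the 64 members with 5 TPM or more in every library, SP100 (mean change -10.1%), against 0.486% of 1029 table genes. The same rule for longer held for 0 members, against 0.972%. SP100, a nuclear body protein induced by interferon, had implied lengths of 99.8, 98.0 and 102.2% under vehicle and 93.9, 89.2 and 86.5% under SSD. Its TPM was 55.68, 50.3 and 46.71 under vehicle and 61.19, 69.09 and 82.52 under SSD, without overlap, but by count it was not called (log2 fold change 0.32, SE 0.0844, adjusted p 0.0568). Which transcripts these lengths stand for was not tested.

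**Figure D3:**
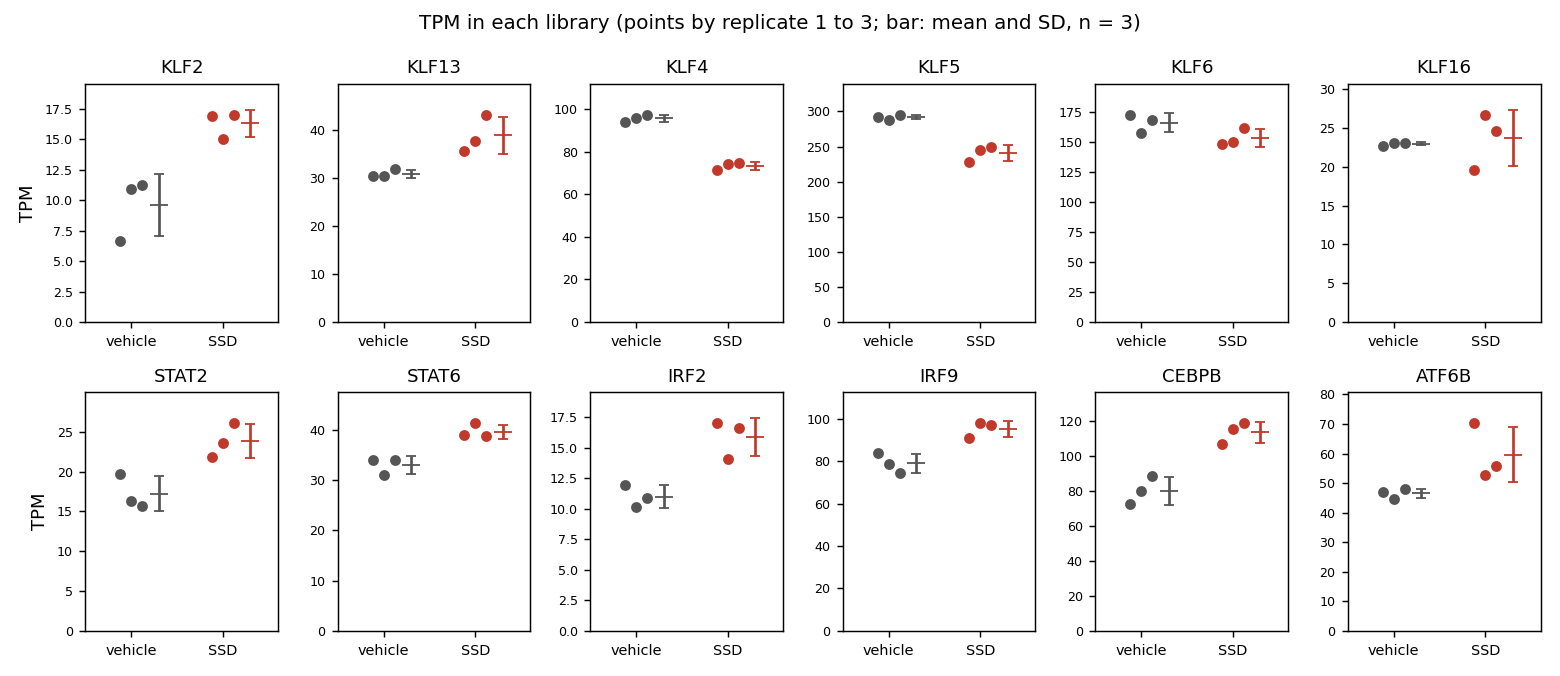
TPM (y axis, starting at 0, a different range in each panel) in each vehicle library (grey) and SSD library (red), points ordered by replicate, with the mean and SD (n = 3) beside them, for the 6 Krüppel-like factors (top), STAT2, STAT6, IRF2, IRF9, CEBPB and ATF6B (bottom). KLF4 and KLF5 fell, KLF2 and KLF13 rose, KLF6 and KLF16 overlapped between groups, and all 6 genes of the lower row rose without overlap. Genes of the lower row were chosen from members called higher, and 32.2% of all table genes rose without overlap.

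Among the 11 genes with a ZNF or ZSCAN symbol 4 were called higher (36.4%), 2 lower (18.2%) and 5 not, shares close to the 32.3% and 20.8% of the table. Their log2 fold changes were positive in 6 and negative in 5. The median, 0.25 against -0.14 over the table, is therefore the smallest of the rises, that of ZNF703, and does not describe a common rise. The next lower value was -0.16, of ZNF146. ZNF618, a zinc finger protein that binds the chromatin reader UHRF2, lies at chr9:113876282-114056591 and had 5.95, 6.82 and 7.73 TPM with vehicle, versus 9.33, 10.07 and 9.44 with SSD. Every SSD library was above every vehicle library (log2 fold change 0.51, SE 0.0692, adjusted p 0.0039), and the call held without any 1 library. ZSCAN31, which joins fingers to a SCAN dimerization domain, was much more abundant, with 219.88, 176.4 and 199.68 TPM with vehicle, versus 267.88, 250.59 and 245.17 with SSD. It rose without overlap (log2 fold change 0.40, SE 0.0755, adjusted p 0.0125), and was not called without vehicle replicate 2 or 3. ZNF532 rose from 27.4, 23.22 and 26.91 TPM to 37.0, 33.27 and 35.78 TPM (log2 fold change 0.37, SE 0.0662, adjusted p 0.0102), lost only without vehicle replicate 2. Its protein is known from the chromatin complex of NUT carcinoma.

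ZNF160 was the only zinc finger member whose annotation held a KRAB domain, the module through which the largest zinc finger subfamily represses its targets. It had 15.14, 13.37 and 12.84 TPM with vehicle, versus 14.64, 17.07 and 17.87 with SSD, so that SSD replicate 1 lay within the vehicle range although its counts were called higher (log2 fold change 0.36, SE 0.0814, adjusted p 0.0279). The call was not made when replicate 2 or 3 of either group was left out. Of 19 corepressor and chromatin genes that work with KRAB proteins, 2 were in the table and neither was called. UHRF1, which couples DNA methylation to replication, had a log2 fold change of -0.17 (SE 0.0552, adjusted p 0.138), and RBBP4, a histone chaperone of several corepressor complexes, one of -0.11 (SE 0.0453, adjusted p 0.38).

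ZNF593, a short protein known from assembly of the large ribosomal subunit, showed the largest fall among the zinc finger genes. It lies at chr1:26169871-26170873 and had 101.86, 103.13 and 97.88 TPM with vehicle, versus 79.74, 73.64 and 72.12 with SSD. The groups were far apart (log2 fold change -0.48, SE 0.0794, adjusted p 0.00776), and the call was lost only without vehicle replicate 2. ZNF232, the other SCAN domain gene, had 22.48, 23.12 and 23.72 TPM with vehicle, versus 16.75, 18.54 and 16.36 with SSD. Its groups did not overlap either, yet it stood just inside the threshold (log2 fold change -0.35, SE 0.09, adjusted p 0.0481) and was not called with TMM or when any 1 of the 6 libraries was left out. The pair of SCAN domain genes thus moved in opposite directions.

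ZFHX3, a very large protein with zinc fingers and homeodomains that is often mutated in prostate cancer, rose from 9.57, 9.88 and 10.44 TPM to 11.56, 12.44 and 12.13 TPM without overlap. Its log2 fold change was 0.27 (SE 0.0534, adjusted p 0.0152), not called when vehicle replicate 1 or 2 or SSD replicate 2 was left out. The 8 zinc finger genes that were not called were KLF6, PRDM1, PRDM11, ZNF143, ZNF146, ZNF518A, ZNF703 and ZNF787. PRDM1, the transcriptional repressor BLIMP1 known for driving plasma cell differentiation, had 8.93 to 13.71 TPM under vehicle and 7.73 to 13.29 TPM under SSD, which overlapped. As for KLF16, count and TPM differed, with a log2 fold change of -0.34 by count (SE 0.0879, adjusted p 0.0517) and -0.07 on log2(TPM + 1). Its implied length was 115.0, 100.3 and 84.7% with vehicle, versus 102.6, 70.9 and 78.4% with SSD, groups that overlapped. ZNF143, an activator bound at many promoters, had 27.17 to 33.94 TPM under vehicle and 19.97 to 25.42 TPM under SSD, which did not overlap, with an adjusted p of 0.0538. ZNF518A and ZNF703, the latter a corepressor amplified in luminal breast cancer, also did not overlap (log2 fold changes 0.29 and 0.25, adjusted p 0.063 and 0.0596) and were called higher with TMM.

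Among genes of the IRF and STAT families, STAT2, IRF9, IRF2 and STAT6 were called higher, with log2 fold changes from 0.28 to 0.55. Over the table, 32.3% of genes were called higher. The families were chosen with earlier results of these data known, and a gene had to change to be listed at all, so the common direction is a description. STAT2, a subunit of the complex through which type I interferon acts, was not abundant. It rose from 19.73, 16.35 and 15.64 TPM to 21.78, 23.58 and 26.03 TPM (log2 fold change 0.55, SE 0.0995, adjusted p 0.0114), not called without vehicle replicate 2 or 3. The groups did not overlap. IRF9, the DNA-reading subunit of the same complex, whose promoter letters stand above, rose from 83.66, 78.6 and 74.56 TPM to 90.87, 97.7 and 96.77 TPM. Its log2 fold change was 0.28 (SE 0.0609, adjusted p 0.0228), not called when vehicle replicate 2 or 3 or SSD replicate 2 was left out, and its exons overlap another annotated gene on the same strand.

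IRF2, a factor that competes with IRF1 for interferon-response elements, had 11.99, 10.13 and 10.91 TPM with vehicle, versus 17.0, 14.08 and 16.59 with SSD. All SSD libraries were higher, but from a mean of 293 counts the call (log2 fold change 0.44, SE 0.104, adjusted p 0.0327) was made only when SSD replicate 1 was the library left out. STAT6, which carries signals of interleukins 4 and 13 rather than interferon, rose from 34.07, 31.03 and 33.98 TPM to 39.03, 41.3 and 38.76 TPM. Its log2 fold change was 0.30 (SE 0.0541, adjusted p 0.0107), not called without vehicle replicate 2 or SSD replicate 2.

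The AP-1, ATF and CREB list also took in CEBPB, CEBPZ, MAFK and NFE2L2, which are outside the families of its name. Of its 7 genes in the table, 2 were called higher and 0 lower, beside 32.3% and 20.8% of the table. CEBPB, an activator of acute-phase and stress-response genes at chr20:50190734-50192689, had 72.23, 79.93 and 88.24 TPM with vehicle, versus 106.53, 115.12 and 118.48 with SSD. Every SSD library was above every vehicle library (log2 fold change 0.49, SE 0.074, adjusted p 0.00527), with each library left out as well. ATF6B, a membrane-bound factor cut free when the endoplasmic reticulum is stressed, had 46.88, 44.77 and 47.87 TPM with vehicle, versus 70.18, 52.72 and 55.83 with SSD. The groups did not overlap, and SSD replicate 1 lay far above the other SSD libraries by TPM. Exons of ATF6B overlap 2 annotated genes on the same strand, TNXB among them. Its implied length was 99.5, 103.2 and 97.4% with vehicle, versus 80.2, 107.5 and 106.3% with SSD. Its log2 fold change by count was 0.31 (SE 0.051, adjusted p 0.00794), not called without vehicle replicate 2. The 5 that were not called were FOSL1, MAFK, CEBPZ, CREB3L2 and NFE2L2. NFE2L2, the NRF2 regulator of antioxidant genes, had 153.08 to 156.47 TPM under vehicle and 140.47 to 154.68 TPM under SSD (log2 fold change -0.09, SE 0.0474), and CEBPZ is a nucleolar protein without a bZIP domain in spite of its name.

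The E-box reader BHLHE40, a repressor of clock and hypoxia programmes, had 35.53, 29.83 and 29.59 TPM with vehicle, versus 39.62, 47.88 and 39.0 with SSD. It rose without overlap (log2 fold change 0.42, SE 0.0934, adjusted p 0.0249) and was not called when vehicle replicate 2 or 3 or SSD replicate 2 was left out. NR1D2, the nuclear receptor REV-ERBβ of the clock, rose from 25.04, 22.97 and 24.22 TPM to 26.09, 29.29 and 31.46 TPM. Its log2 fold change was 0.31 (SE 0.0698, adjusted p 0.0263), called only without SSD replicate 1 or SSD replicate 3. NR3C2, the mineralocorticoid receptor, was the least abundant member, with 2.27, 1.77 and 1.81 TPM with vehicle, versus 2.56, 2.56 and 3.17 with SSD. Its groups lay apart, with a log2 fold change of 0.62 (SE 0.13, adjusted p 0.0193) from a mean of 154 counts, also called only without SSD replicate 1 or 3. MAX, the partner of MYC, was the only 1 of 12 genes listed for the MYC and MAX network in the table. It had 162.95, 147.67 and 175.02 TPM with vehicle, versus 162.39, 143.12 and 141.03 with SSD, groups that overlapped, and was not called (log2 fold change -0.12, SE 0.0483, adjusted p 0.353).

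The largest fall of all members was that of POU2F3, the factor that specifies tuft cells, at chr11:120236640-120319944. It had 5.75, 6.9 and 7.1 TPM with vehicle, versus 2.92, 4.32 and 3.71 with SSD. All SSD libraries were lower (log2 fold change -0.87, SE 0.161, adjusted p 0.0122), from a mean of 102 counts, and the call was not made without vehicle replicate 2 or 3. It was the only 1 of the 6 non-zinc-finger falls that was called on all 4 scales between libraries. PBX4, a homeodomain cofactor of HOX proteins, showed a fall of similar size (log2 fold change -0.77, SE 0.22) that was not called at a mean of 59 counts (adjusted p 0.0819).

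Both ETS members were called lower, too few to set against the 20.8% of the table called lower. EHF, an epithelial ETS factor, had 38.08, 36.69 and 35.72 TPM with vehicle, versus 26.99, 25.65 and 34.92 with SSD. Its groups barely parted, since SSD replicate 3 lay just below the lowest vehicle library (log2 fold change -0.36, SE 0.0828, adjusted p 0.0297), and it was called only when that library was the one left out. ETS1, known from lymphocytes, vessels and invasive tumours, had 19.57, 17.24 and 17.36 TPM with vehicle, versus 13.93, 14.31 and 13.96 with SSD. Its SSD libraries lay close together below all vehicle libraries (log2 fold change -0.35, SE 0.0684, adjusted p 0.0146), not called without SSD replicate 2. With TMM neither ETS gene was called (adjusted p 0.059 for EHF and 0.0674 for ETS1).

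The remaining falls were small, of abundant transcripts, and were not called with TMM. PA2G4, a growth-related protein with many RNA-binding roles, had 346.75, 377.67 and 362.77 TPM with vehicle, versus 316.0, 335.51 and 297.08 with SSD (log2 fold change -0.24, SE 0.048, adjusted p 0.0159), and it has 5 annotated pseudogene copies. NOLC1, a nucleolar chaperone of small nucleolar ribonucleoproteins, went from 163.64, 170.99 and 179.66 TPM to 144.26, 144.88 and 151.15 TPM (log2 fold change -0.22, SE 0.0465, adjusted p 0.0176). Both were not called when vehicle replicate 2 or 3 or SSD replicate 2 was left out. MSX2, a homeobox repressor of craniofacial and limb development, went from 59.33, 60.05 and 62.17 TPM to 52.79, 49.96 and 52.42 TPM (log2 fold change -0.21, SE 0.0546, adjusted p 0.0487), called only without SSD replicate 3. All 3 were lower under SSD without overlap of the groups, as were 44.2% of table genes. PA2G4 and NOLC1 are annotated as transcription factors by gene ontology but are better known for ribosome-related work.

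**Figure D4:**
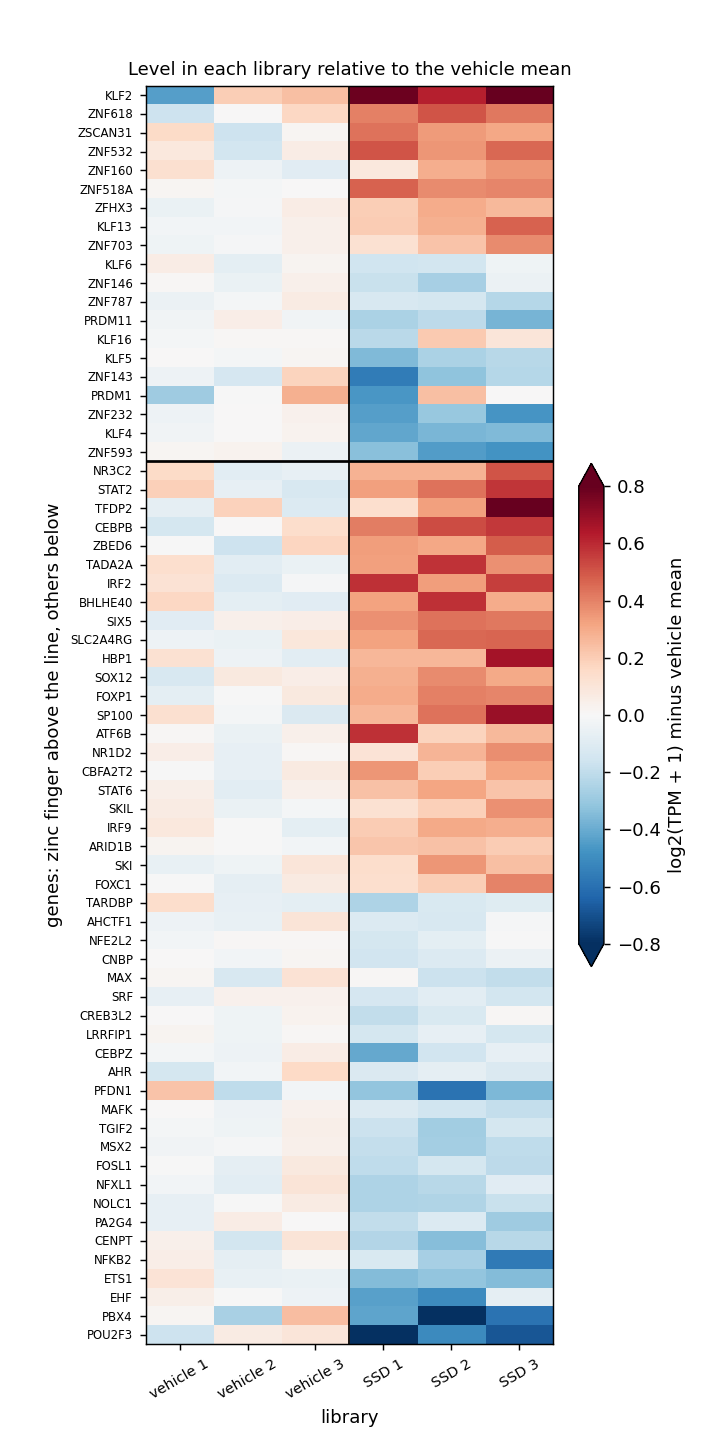
Log2(TPM + 1) of each member drawn (rows; zinc finger genes above the line, others below, each block ordered by change) in each library (columns) minus that member's vehicle mean, with red above it, blue below it and colours saturated beyond 0.8 in either direction. The SSD columns are red for the upper genes of each block and blue for the lower ones, KLF16 is mixed among the SSD libraries, and vehicle replicate 1 is low for KLF2.

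Developmental factors of the forkhead, SOX and homeobox families were called in both directions. Of 3 forkhead and SOX members 2 were called higher and 0 lower, too few to set against the 32.3% and 20.8% of the table. FOXP1, a forkhead repressor, rose from 44.29, 46.53 and 49.45 TPM to 57.53, 62.01 and 61.64 TPM without overlap (log2 fold change 0.32, SE 0.0533, adjusted p 0.00801), lost only without vehicle replicate 2. SOX12, a SoxC protein, rose from 15.21, 17.74 and 17.39 TPM to 20.59, 22.03 and 20.89 TPM (log2 fold change 0.33, SE 0.0674, adjusted p 0.0158). Its call was not made when vehicle replicate 1 or 3 or SSD replicate 2 was left out. FOXC1, a forkhead factor of mesenchyme and the eye, had 126.03 to 139.12 TPM under vehicle and 145.22 to 174.32 TPM under SSD, without overlap, and was called with TMM but not on the whole-library scale (adjusted p 0.0695). SIX5, a homeobox gene beside the myotonic dystrophy locus, rose from 10.74, 11.86 and 11.98 TPM to 15.1, 15.94 and 15.75 TPM. Its groups were well apart (log2 fold change 0.39, SE 0.0769, adjusted p 0.0151), although it was called only without SSD replicate 1 or 3.

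TFDP2, a dimer partner of E2F proteins, had 19.29, 23.17 and 18.72 TPM with vehicle, versus 22.34, 25.8 and 38.46 with SSD. SSD replicate 1 lay within the vehicle range by TPM and SSD replicate 3 far above the rest, whereas by count the log2 fold change was 0.51 (SE 0.0954, adjusted p 0.0122) and was called without any 1 library. The implied length of TFDP2 was 111.7, 94.1 and 94.2% with vehicle, versus 125.6, 108.1 and 81.3% with SSD. TADA2A, an adaptor of the histone acetyltransferases GCN5 and PCAF, rose from 17.36, 14.79 and 15.11 TPM to 19.95, 23.98 and 20.5 TPM (log2 fold change 0.45, SE 0.0913, adjusted p 0.0159), not called when vehicle replicate 2 or 3 or SSD replicate 2 was left out. ZBED6, a repressor of IGF2 derived from a transposon, rose from 2.97, 2.55 and 3.48 TPM to 4.03, 3.93 and 4.57 TPM (log2 fold change 0.48, SE 0.113, adjusted p 0.0317). It lies inside ZC3H11A on the same strand, so that reads of the host transcript may be counted with it, and it was called only without vehicle replicate 3 or SSD replicate 1. Other members called higher were HBP1, an HMG-box repressor of cell-cycle genes, SLC2A4RG, the corepressors CBFA2T2 and SKI, and ARID1B, a subunit of the BAF chromatin remodelling complex. Their log2 fold changes were 0.33, 0.37, 0.30, 0.26 and 0.26, all 5 without overlap of the groups, as for 32.2% of table genes. HBP1 and SLC2A4RG were not called when vehicle replicate 2 or 3 or SSD replicate 2 was left out, and CBFA2T2 was not called without vehicle replicate 2 or 3. SKI lost its call without any 1 vehicle library or SSD replicate 2, and ARID1B when vehicle replicate 1 or 2 or SSD replicate 2 was left out.

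The 21 other members that were not called included regulators of stress and of signalling. NFKB2, the p100 subunit of NF-κB, had 54.9 to 59.91 TPM under vehicle and 38.69 to 52.98 TPM under SSD, without overlap, with an adjusted p of 0.0569. AHR, the receptor of dioxin and related ligands, had 60.12 to 74.4 TPM under vehicle and 61.18 to 63.08 TPM under SSD, which overlapped (log2 fold change -0.16, adjusted p 0.41). SRF, the serum response factor, had 33.32 to 35.87 TPM under vehicle and 31.43 to 32.99 TPM under SSD (log2 fold change -0.13, adjusted p 0.41). Without the adjustment, 64 of the 68 members had a p under 0.05 in edgeR's test, as did 998 of the 1099 table genes, since the table was chosen that way.

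Chromosome 19 held 7 of the members, more than any other. Exons of 13 members overlap another annotated gene on the same strand and those of 25 one on the opposite strand, and since strand use in counting is not given in the sources used here, reads of such pairs cannot be told apart. Called members with a same-strand overlap were ATF6B, FOXP1, IRF9, PA2G4, SLC2A4RG and ZBED6. STAT6, CEBPB, BHLHE40, SIX5, KLF16, ZFHX3, ZNF232 and ZNF593 are among those with an overlap on the opposite strand. Of the 68 members, 9 have an annotated pseudogene copy.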

How the data were processed

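The authors deposited 1 table with, per gene and library, an estimated count and a TPM value scaled over all genes of the library, made on a commercial cloud platform. The submitters' processing notes name GRCh38.p13, and the aligner and counting program are not given in the sources used here. The deposited p-values and adjusted p-values served only to find that 11289 genes had been tested, and the authors' fold changes were not used.

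Estimated counts (33.5% not whole) were rounded and tested over all 1099 genes with edgeR 4.0.16's quasi-likelihood test in R 4.3.3, tested on simulated data, with group as the only term. Library scale was the median of count over TPM in each library, because TMM assumes mostly unchanged genes. Benjamini-Hochberg adjustment ran over 11289 genes, taking those outside the table as having larger p. No gene, and so none of the 68 members, was dropped by edgeR's filter for low counts. An exact permutation test of 3 against 3 libraries cannot go below 0.1. Depth was known for the table only.

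Alternatives were TMM, DESeq2 1.42.0's size factors and Wald test, library size alone, limma 3.58.1 on log2(TPM + 1) or log2(TPM + 0.1), other filters, adjustment over the table alone, the replicate number as a block and each library left out. Named genes were up to 10 rises and 10 falls per class with an adjusted p under 0.05 and a mean of at least 100 counts, family members that passed, and the corepressor and MYC partner genes in the table. Further members were named to account for the rest. Members, families and lists were chosen with earlier results of these data known, and implied length and promoter words were chosen after seeing the data. GENCODE release 29 (GRCh38) gave gene coordinates, exon overlaps and pseudogene copies. A single member is counted in the totals but not reported here. SP100, which is not a C2H2 gene, was placed among the others.

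Same-numbered vehicle and SSD libraries did not deviate together (correlations -0.25, -0.05 and -0.04). No library was a copy of another, with a chi-square per degree of freedom of 4.62 to 15.44 between replicates.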

Additional observations from a re-analysis of the deposited data

How the results depend on the processing

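The order of values here is zinc finger genes called higher and lower, then other genes called higher and lower, against 7, 5, 21 and 6 as reported, and last all table genes called lower, against 229. TMM gave 9, 3, 24, 1 and 87, DESeq2's size factors 9, 3, 24, 1 and 86, and library size alone 9, 3, 24, 4 and 126. At the median TMM moved log2 fold changes by 0.08, DESeq2's size factors by 0.10 and library size by 0.06. With TMM, 7 called members were lost (EHF, ETS1, KLF16, MSX2, NOLC1, PA2G4 and ZNF232) and 5 were gained (FOXC1, SKIL, SP100, ZNF518A and ZNF703). The Wald test of DESeq2 gave 9, 6, 24, 7 and 300. Limma on log2(TPM + 1) gave 2, 4, 6, 1 and 75, with 114 table genes higher against 355, and on log2(TPM + 0.1) 2, 4, 6, 1 and 73, with 115 higher. Among the 34 genes of the naming rule, KLF16 alone reversed, to 0.03 with either pseudocount of limma. NFE2L2, AHCTF1 and TARDBP, which were not called, changed sign with the size factors of DESeq2. A mean of at least 100 counts gave 7, 4, 21, 6 and 217, and moved the median of the others from 0.08 to 0.25. Adjustment over the table alone gave 9, 11, 24, 19 and 602. The median of the zinc finger genes, -0.14 as reported, was -0.06 with TMM, -0.04 with DESeq2's size factors and -0.02 and -0.03 with limma, and the median of the others 0.16, 0.18, 0.07 and 0.08, and 0.14 with library size alone. With a library left out, zinc finger genes called higher ran from 1 to 9 and lower from 2 to 6, others from 4 to 24 and from 1 to 8, table genes from 111 to 380 and from 68 to 335, and the class medians from -0.17 to -0.11 and from 0.03 to 0.10. The replicate block, which pairs libraries that share only a number, gave 4, 3, 8, 1 and 98, with 170 table genes higher, and no library correlated best with its own number. Removing the filter on low counts changed none of these values. With 3 libraries a group, members with few counts such as PBX4 (mean 59 counts, SE 0.22) were measured least precisely.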
